A study of Homo sapiens with 8 samples.

Results

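Connexins are the subunits of gap junctions, and 6 of their genes, GJA1, GJB1, GJB2, GJB5, GJB6 and GJC1, are described here. They were found as all probe sets whose array annotation gives a single symbol that is one of these names, which were 15 of 49495 probe sets. The names had been chosen by values measured on these arrays, and which of the EN2 or line differences decided is not recorded, so the levels and changes of the 6 genes below are a description, and a p-value beside them lends no further support. Of 21 human connexin genes looked for, 16 were measured, the 6 and 10 others.

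The study used A549 and PC9, both established cell lines from human lung adenocarcinoma. Cells of each line had been infected with retrovirus made in 293FT packaging cells and carrying either EN2, an engrailed homeobox transcription factor, or the Neo vector alone, and stably infected cells had been selected with an agent that the labels spell genemycin. Each of the 4 groups (A549 with EN2, A549 with vector, PC9 with EN2, PC9 with vector) had 2 arrays, so controls and EN2 cells alike carried a retrovirus and had passed the selection. F-12K was the medium of A549 and Dulbecco's medium that of PC9, so medium and line cannot be told apart. The labels name neither clones nor separate cultures, and the p-values therefore rest on a spread between arrays that may be technical.

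A connexin protein crosses the membrane repeatedly. Connexins assemble into a half-channel in the membrane of a cell, and half-channels of neighbouring cells dock to form a pore for ions and small molecules such as second messengers. The names follow sequence families: GJA1 encodes connexin 43, the most widely expressed member and known in alveolar epithelium, GJC1 encodes connexin 45, and the GJB genes encode the beta connexins of epithelia, among them connexin 26 (GJB2), connexin 30 (GJB6), connexin 31.1 (GJB5, of stratified epithelia) and connexin 32 (GJB1, of liver and Schwann cells). Which connexins a cell makes sets the partners and the permeability of its junctions.

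Values are log2 RMA values, in which a difference of 1 is a 2-fold difference, and a gene is represented by its brightest probe set unless said otherwise. The median of an array lay at 6.33 to 6.35 for A549 and at 6.10 to 6.11 for PC9. The 95th percentile of 100 ERCC spike-in probe sets, called the spike-in level below, was 4.34 to 4.43 on the A549 arrays and 3.85 to 3.997 on the PC9 arrays. Background control probe sets named for their number of G and C bases read 4.39 to 4.48 in A549 and 3.999 to 4.03 in PC9 at 16 such bases, 6.14 to 6.22 and 5.78 to 5.83 at 20, and 7.62 to 7.71 and 7.43 to 7.49 at 22. A GC-rich probe set can thus lie well above the spike-in level without target. The base composition of the connexin probes was not used here. EN2 itself read 7.71 and 7.62 with EN2 against 6.48 and 6.57 with vector in A549, and 6.24 and 6.39 against 5.86 and 5.78 in PC9; limma called the A549 change (Benjamini-Hochberg adjusted p = 0.00028 over 18244 genes) but not that of PC9 (adjusted p = 0.0801). The A549 call ended in 2 of the settings tried, 1 of them the fit adjusted for 18S rRNA (1.11, adjusted p = 0.13). In A549 that signal was lower on both EN2 arrays than on both vector arrays, so this fit can hardly tell it apart from EN2. Without the A549 arrays of outermost 18S rRNA signal the EN2 change was 1.15, and the mean of the EN2 probe sets gave 0.60 (adjusted p = 0.0179). All 6 epithelial markers lay above the spike-in level in every group, while EPCAM averaged 6.04 in A549 and 12.04 in PC9 with vector. Of the other marker lists, 3 of 6 fibroblast, 4 of 5 leukocyte and 3 (A549) or 4 (PC9) of 5 endothelial markers also lay above it. Their list means per array were 4.31 to 4.49 for fibroblast, 5.22 to 5.62 for endothelial and 5.31 to 5.84 for leukocyte markers, and CD68 was the highest single one at up to 9.15 in a group mean. The leukocyte marker PTPRC and the fibroblast markers COL3A1, DCN and LUM lay below the spike-in level in all groups.

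**Figure D1:**
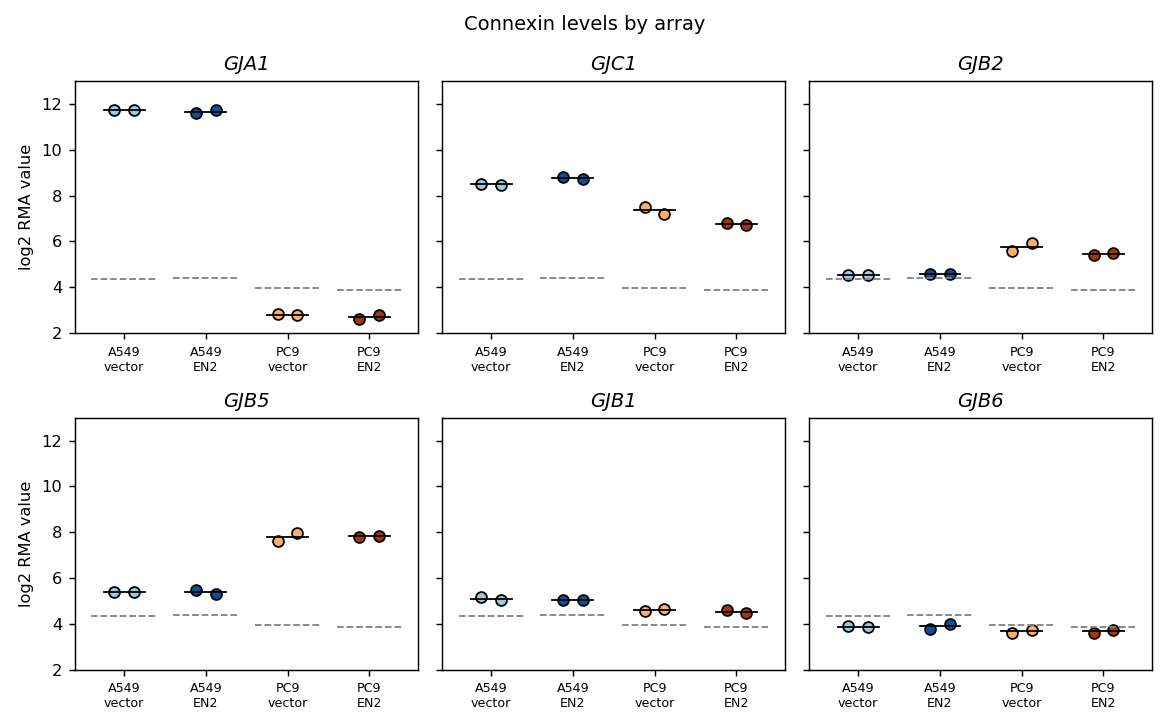
Levels of the 6 connexin genes on each array (log2 RMA value, brightest probe set per gene), with 2 arrays in each of 4 groups; circles are arrays, black lines group means and dashed grey lines the mean spike-in level of the group. GJA1 and GJC1 sit higher in A549, GJB2 and GJB5 higher in PC9, and GJB6 lies below the dashed line in all groups.

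The lines differed in the RNA signal of connexin genes, and for GJA1, GJB2, GJB5 and GJC1 the line difference was larger than the EN2 difference of the same gene in either line. GJA1 read about 11.7 in A549 and below the spike-in level in PC9. GJC1 was also higher in A549, by 1.14 ± 0.11 (SE) with vector, whereas GJB5 was 5.30-fold higher in PC9 (A549 minus PC9 −2.41 on the log2 scale) and GJB2 2.34-fold (−1.22). In A549 GJB5 and GJB2 lay within the range of the background controls, so the sizes of these differences may be limited by background. GJB1 and GJB6 gave low values in both lines. Between the vector controls limma called 5 of the 6 genes, beside 75.8% of all genes. Of the 5, 3 were higher in A549 (46% of all genes) and 2 higher in PC9 (29.7%).

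GJA1 showed the widest contrast of the 6. Its brightest probe set read 11.73 and 11.75 in A549 with vector and 11.61 and 11.73 in A549 with EN2. In PC9 it read 2.83 and 2.77 with vector and 2.61 and 2.78 with EN2. Every A549 array thus stood far above every PC9 array, and all 4 PC9 arrays lay below the spike-in level, so for this probe set only a bound can be given: it was at least 218-fold higher in A549 than in PC9 with vector, taking the spike-in level of each PC9 array as its floor. Probe set 2, the next brightest and above the spike-in level on all 8 arrays, gave a log2 difference of 2.68. Its PC9 values of 5.02 to 5.23 lay within the range of the background controls of up to 20 G and C bases. The difference may therefore be limited by background too, and the size given for the gene depends on the probe set. With each array centred on its median the bound was 185-fold, and after quantile normalisation over all arrays 195-fold.

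The promoters of GJA1 and GJB2 are shown because these genes had opposite line patterns. The sequences are from RefSeq, build GRCh38.p14, and cover the 250 bases before the annotated start, which need not be the start used in these cells. Of the 6 genes, 4 (GJA1, GJB1, GJB2 and GJB6) had an entry. GJA1 lies on the plus strand at chr6:121435396-121435645 and GJB2 on the minus strand at chr13:20192939-20193188. Capitals mark matches, on either strand, to TGANTCA (the AP-1 site bound by JUN and FOS), GGGCGG (the GC box of SP1) or TAATTA (the core bound by engrailed and many other homeodomains).
GJA1: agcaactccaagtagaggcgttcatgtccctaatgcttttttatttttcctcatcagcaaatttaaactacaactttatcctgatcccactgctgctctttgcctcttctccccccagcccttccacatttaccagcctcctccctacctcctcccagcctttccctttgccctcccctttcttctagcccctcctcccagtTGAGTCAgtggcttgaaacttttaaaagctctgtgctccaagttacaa
GJB2: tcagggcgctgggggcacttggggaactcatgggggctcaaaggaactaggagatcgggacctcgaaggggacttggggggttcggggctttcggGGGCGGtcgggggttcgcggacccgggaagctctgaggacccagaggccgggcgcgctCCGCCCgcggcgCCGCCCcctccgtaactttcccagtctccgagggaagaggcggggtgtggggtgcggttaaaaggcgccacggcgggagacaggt
The GJA1 stretch was 48.0% G or C with 1 CpG and held 1 AP-1 match, 48 bases before the start, and no GC box in these letters. The GJB2 stretch was 70.0% G or C with 25 CpG and held 3 GC box matches, 155, 97 and 85 bases before the start, and no AP-1 match. Over 35116 promoters of this length, the median was 58.0% G or C and 11 CpG, and 6.57% held the AP-1 letters, 42.6% the GC box and 4.35% TAATTA. None of the 4 connexin windows held TAATTA, which says only that these letters are not there. A match is a description of the sequence and was not tested as a binding site.

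The 4 GJA1 probe sets all read higher in A549, with vector differences of 8.93, 2.68, 2.65 and 3.08 from the brightest to the dimmest. In PC9 probe set 3, counted from the brightest, was near the spike-in level (3.83 to 4.16) and probe set 4 below it (3.28 to 3.52), while probe set 2 read 5.02 to 5.23. The probe sets therefore gave the same order of the lines with very different sizes, and values of different probe sets are not comparable as levels.

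GJC1, the connexin 45 gene, was measured well above the spike-in level in both lines on its brightest probe set. This probe set read 8.53 and 8.46 in A549 with vector and 8.81 and 8.71 with EN2. In PC9 it read 7.51 and 7.20 with vector and 6.79 and 6.72 with EN2. All A549 arrays exceeded all PC9 arrays, and in each line the EN2 and vector arrays did not overlap, with EN2 above vector in A549 and below it in PC9. The other GJC1 probe sets were also higher in A549, by 0.91 and 1.93 with vector. In PC9 probe set 2 read 5.21 to 5.80, within the range of the background controls of up to 20 G and C bases. Probe set 3 read 3.57 to 4.51 there, and on PC9 EN2 replicate 1 it lay below the spike-in level. The PC9 values of the brightest probe set lay above the background controls of 20 G and C bases and overlapped the range between 20 and 22.

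GJB5 was the clearest connexin of PC9. It has 1 probe set, which read 7.64 and 7.97 with vector and 7.80 and 7.84 with EN2 in PC9. In A549 it read 5.40 and 5.39 with vector and 5.49 and 5.29 with EN2. The PC9 arrays all lay above the A549 arrays, and the EN2 and vector arrays overlapped in each line. The A549 level lies above the spike-in level but within the range of the background controls of up to 20 G and C bases.

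GJB2 read 5.59 and 5.91 in PC9 with vector and 5.40 and 5.51 with EN2. In A549 it read 4.54 and 4.52 with vector and 4.58 and 4.57 with EN2. Its other probe sets, 5.29 to 6.09 and 4.45 to 4.77 in PC9, lay below the spike-in level on all 4 A549 arrays (3.81 to 3.94 and 3.53 to 3.93). The A549 minus PC9 difference was −1.22, −2.22 and −1.01 for the 3 GJB2 probe sets, all higher in PC9. The PC9 range of the brighter ones overlaps the range of the background controls of up to 20 G and C bases of that line. In A549 the brightest lay just above the spike-in level of 4.34 to 4.43. The sizes of the GJB2 line differences may therefore be limited by background.

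GJB1 read 5.16 and 5.04 in A549 with vector, 5.04 and 5.06 with EN2, 4.56 and 4.67 in PC9 with vector and 4.62 and 4.46 with EN2. Its line difference of 0.48 ± 0.095 (SE) passed the test as deposited (adjusted p = 0.00102) and was 0.063 after quantile normalisation over all arrays (adjusted p = 0.544). After median centring it was 0.24 (adjusted p = 0.0405), so the direction was the same under these scalings while the size and the call were not. GJB6 read 3.78 to 4.01 in A549 and 3.59 to 3.75 in PC9, and its 3 probe sets were below the spike-in level on all 8 arrays. Its line difference of 0.21 did not pass (adjusted p = 0.0941), and it was −0.14 after quantile normalisation, −0.028 after median centring and 0.19 (adjusted p = 0.021) for the mean of its probe sets. GJB2 and GJB6 are neighbours on chromosome 13 in RefSeq gene order, with GJA3 on the other side of GJB2.

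How the lines were scaled to each other limits these line differences. The labels do not say that all arrays were normalised together, and the median of all genes was 0.17 higher in A549 than in PC9 with vector. It became −0.025 after quantile normalisation and −0.068 after median centring, and GJA1, GJB2, GJB5 and GJC1 kept their direction and call under both. The 18S rRNA control signal, 11.66 to 12.74 in A549 and 6.05 to 6.10 in PC9, splits with the line, so the fit that takes it as a covariate cannot tell it apart from the line. In that fit no connexin was called between the lines, and 164 of 18244 genes were. GJA1 was then 7.71 (adjusted p = 0.0556), GJB2 −1.30, GJB5 −0.68, GJC1 2.84, GJB1 0.90 and GJB6 −2.06.

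**Figure D2:**
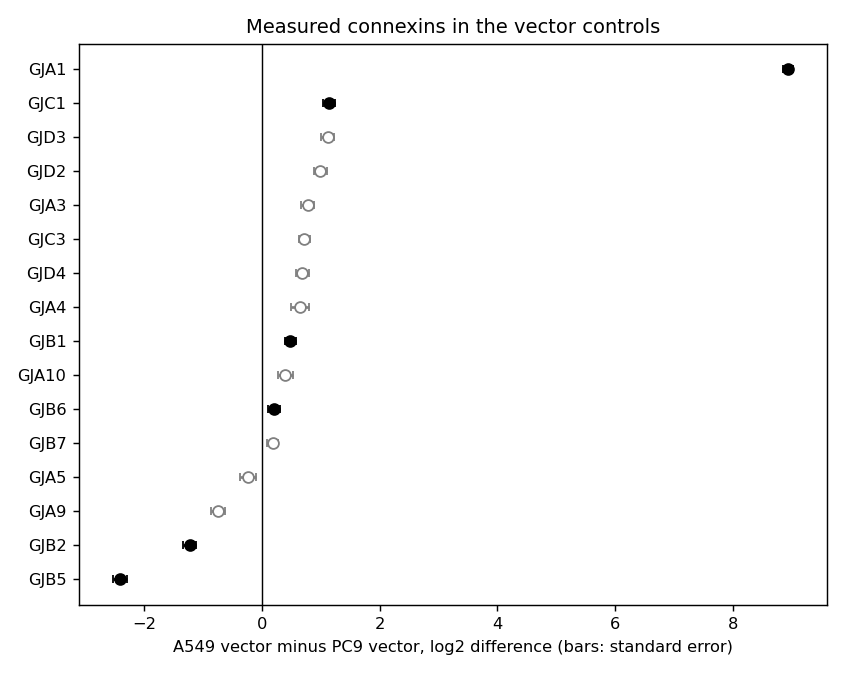
Difference between the A549 and PC9 vector controls (log2, limma estimate ± SE, 2 arrays each) for the 16 measured connexin genes; filled circles are the 6 genes described and open circles the other 10. GJA1 stands at 8.93, GJB2 and GJB5 lie to the left at −1.22 and −2.41, and the rest lie between −0.74 and 1.14; for GJA1 the PC9 side is below the spike-in level.

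The other 10 connexins gave low values throughout. GJA3 and GJB7 were below the spike-in level on all 8 arrays, and GJA9 on all 4 A549 arrays. GJA4 (connexin 37, of endothelium) averaged 5.13 in A549 and 4.48 in PC9 with vector, GJA10 4.85 and 4.45, GJC3 4.57 and 3.85, GJD2 (connexin 36, of neurons) 6.15 and 5.15, GJD3 5.24 and 4.12, and GJD4 5.64 and 4.95. All these lie within the range of the background controls of up to 20 G and C bases. GJA5, the connexin 40 gene, averaged 4.29 in A549 and 4.53 in PC9 with vector. Over the 16 measured connexins, limma called 10 higher and 3 lower in A549, beside 46% and 29.7% of all genes (75.8% in either direction). The median difference was 0.57 beside 0.17 over all genes. Many of these connexins lay within the range of the background controls, and those controls were also higher in A549. At 18 G and C bases they read 5.61 to 5.70 in A549 and 5.09 to 5.12 in PC9. The part of this offset in the connexin differences was not tested. With quantile normalisation 11 of the 16 were called, and with median centring 13.

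With EN2, no connexin passed the test in either line when each gene was represented by its brightest probe set. In A549 none of the 6 was called (2.72% of all genes were), and 3 of the 6 changes were positive with a median of 0.00042 beside −0.0015 over all genes. In PC9 none of the 6 was called either (0.367% of all genes), 2 were positive, and the median was −0.090 beside 0.0040. The EN2 and vector arrays did not overlap for GJB2 and GJC1 in A549, where 47.6% of all genes did not overlap, and for the same 2 genes in PC9, where 32.9% did not. Among the other 10 connexins none was called in either line.

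GJC1 had the largest changes of the 6. The A549 change was 0.27 ± 0.11 (SE) on the log2 scale (adjusted p = 0.228), the PC9 change was −0.60 ± 0.11 (adjusted p = 0.0672), and neither passed limma's test. The difference between these changes, 0.87 ± 0.15, passed (adjusted p = 0.0381), as it did for 0.784% of all genes, and it was the only one of the 6 genes to do so. Its other probe sets gave differences of 0.60 (adjusted p = 0.198) and 0.50 (adjusted p = 0.582) over 45284 probe sets, in the same direction and not called. The call on the brightest probe set ended when any of 7 of the 8 arrays was left out, with values of 0.71 to 0.92 in those fits, and held at 1.02 without PC9 vector replicate 2. It also ended for the mean of the GJC1 probe sets (0.66, adjusted p = 0.0852) and in the fit adjusted for 18S rRNA (0.69, adjusted p = 0.584).

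GJA1 gave different EN2 changes in A549 according to the probe set. The brightest gave −0.068 ± 0.090 (SE; 95% interval −0.27 to 0.13, adjusted p = 0.79). Probe set 2 read 7.82 and 7.95 with vector against 7.42 and 7.31 with EN2, a change of −0.52 ± 0.095 (adjusted p = 0.025 over 45284 probe sets). Probe set 3 read 6.32 and 6.80 against 6.02 and 6.13, or −0.49 ± 0.15 (adjusted p = 0.148); it was −0.25 without A549 vector replicate 2 and −0.73, and called, without A549 vector replicate 1 (adjusted p = 0.0395). Probe set 4 read 6.29 and 6.48 against 5.72 and 5.80, or −0.62 ± 0.099 (adjusted p = 0.0139). On these 3 probe sets both EN2 arrays lay below both vector arrays, and on the brightest the groups overlapped. Such separation is common with 2 arrays a group: 47.6% of all genes did not overlap in A549, in either direction.

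Of the 15 connexin probe sets, those 2 of GJA1 were called lower and none higher in A549, beside 2.02% of all probe sets, and none was called in PC9, beside 0.278%. Averaged over its 4 probe sets, GJA1 fell by 0.42 in A549 (adjusted p = 0.042). Probe sets 3 and 4 are annotated to the same source sequence. They are therefore not separate readings, and the mean gives that sequence more weight. The calls of probe sets 2 and 4 ended without A549 EN2 replicate 1 (adjusted p = 0.115 and 0.143) and without A549 vector replicate 2 (adjusted p = 0.22 and 0.146), and that of probe set 2 also without A549 EN2 replicate 2 (adjusted p = 0.0931). On the A549 arrays alone neither was called (adjusted p = 0.119 and 0.0888). The 18S rRNA signal was 11.66 and 12.12 with EN2 and 12.44 and 12.74 with vector in A549. It thus splits with EN2 there, and a fit with it as a covariate can hardly tell it apart from EN2. Adjusted for it the changes were −0.55, −0.013 and −0.41 for probe sets 2, 3 and 4, none called. Over all settings tried, the A549 call of probe set 2 ended in 6 and that of probe set 4 in 5. Of the 6 epithelial markers, 4 fell with EN2 in A549, beside 1.15% of all genes, and none in PC9, beside 0.219%, where the mean over the list was 12.40 to 12.51 with vector and 12.41 with EN2. The A549 mean was 9.83 to 9.86 with vector and 9.33 to 9.39 with EN2, and its part in the GJA1 values was not tested.

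In PC9 the dimmer GJA1 probe sets gave −0.16, 0.13 and 0.16, none called, at levels near the spike-in level for probe set 3 and below it for probe set 4. The difference between the lines passed for GJA1 probe set 4 (−0.78 ± 0.14, adjusted p = 0.0494) and for the brightest GJC1 probe set (adjusted p = 0.0452) in the fit over all probe sets, where 0.532% were called. The GJA1 difference lost that call when any array was left out (adjusted p from 0.0519 to 0.212). Between the vector controls 12 of the 15 probe sets were called in that fit, beside 74.4% of all, and the 3 that were not are those of GJB6.

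**Figure D3:**
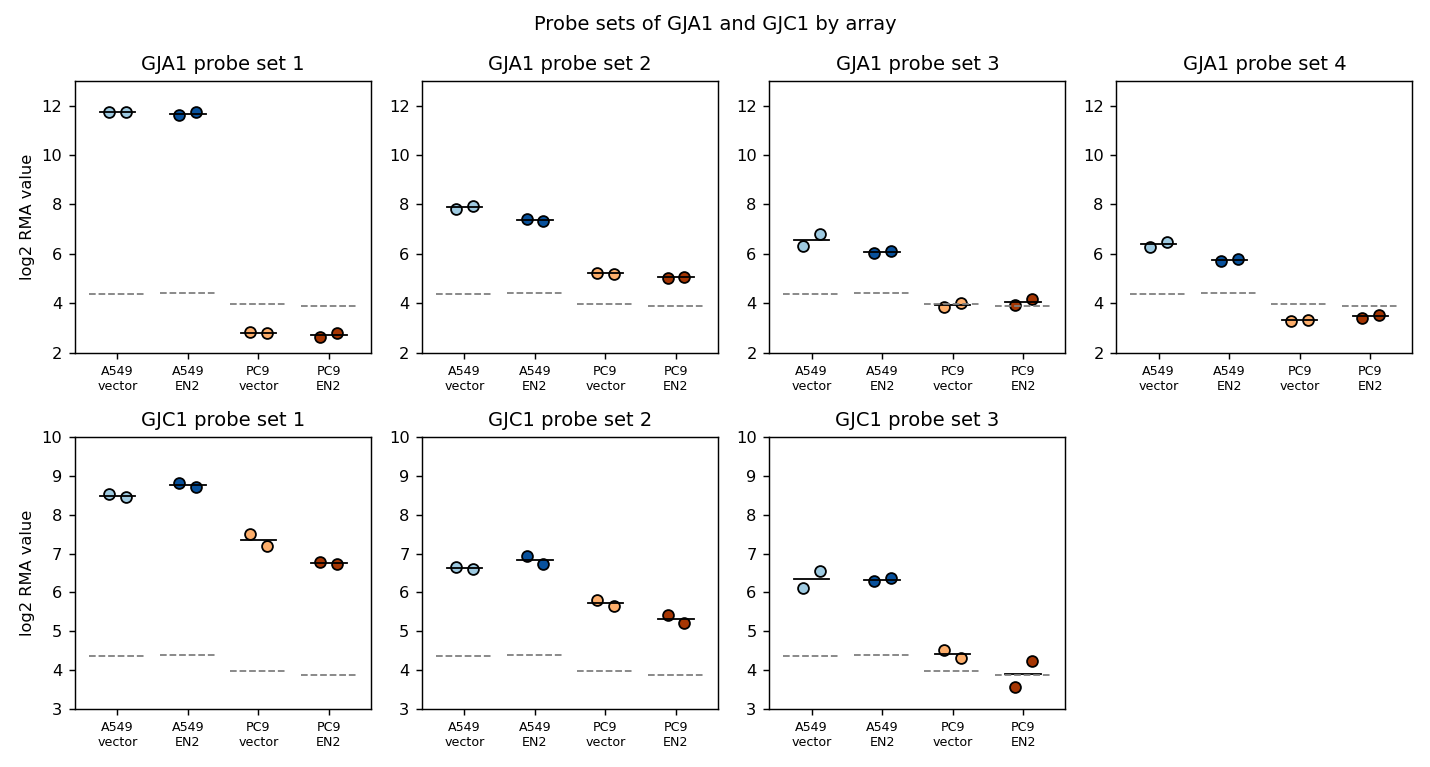
Values of the 4 GJA1 and 3 GJC1 probe sets on each array (log2 RMA value), numbered from the brightest; circles are arrays, black lines group means and dashed grey lines the mean spike-in level. In A549, GJA1 probe sets 2 to 4 are lower with EN2 than with vector while probe set 1 is level, and the GJC1 probe sets are lower with EN2 in PC9.

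GJB2 in PC9 gave EN2 changes of −0.30, −0.50 and −0.20 on its 3 probe sets, and none passed (adjusted p = 0.636 over genes for the brightest, 0.527 and 0.946 over probe sets for the others). On all 3 both EN2 arrays lay below both vector arrays, and 32.9% of all genes did not overlap in PC9, in either direction. The brightest gave −0.13 without PC9 vector replicate 2 and −0.46 without PC9 vector replicate 1. In A549 the brightest gave 0.048 ± 0.11. The interval of the difference between the lines, −0.0085 to 0.69 on the log2 scale, includes 0 (adjusted p = 0.434), and the difference of 0.34 was 0.18 and 0.50 without the same 2 arrays.

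For GJB5 the EN2 change was −0.012 in A549 (95% interval −0.27 to 0.25) and 0.015 in PC9 (−0.25 to 0.28). For GJB1 it was −0.049 (−0.26 to 0.16) and −0.074 (−0.29 to 0.14), and for GJB6, below the spike-in level, 0.013 and 0.00048.

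**Figure D4:**
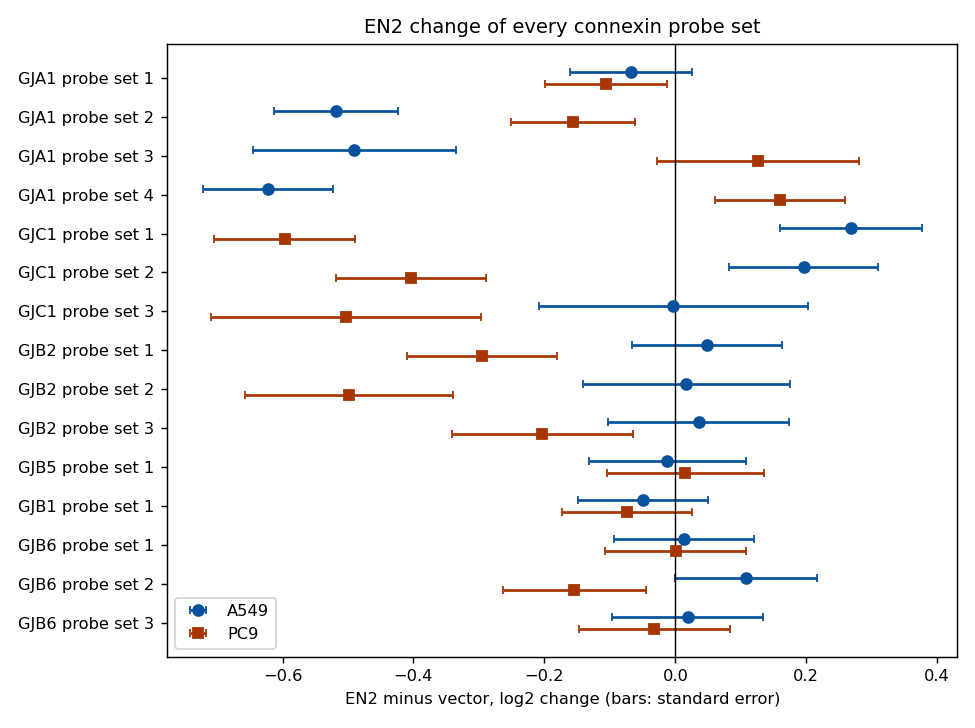
Change with EN2 (EN2 minus vector, log2) for the 15 connexin probe sets in A549 (circles) and PC9 (squares), estimated with limma over all probe sets, with bars of 1 SE; probe sets of a gene are numbered from the brightest. In A549 GJA1 probe sets 2 to 4 lie at −0.49 to −0.62, and in PC9 the 3 GJC1 probe sets lie at −0.40 to −0.60.

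Among the other connexins, GJA5 in PC9 had the largest EN2 change, 0.53 ± 0.13 (SE), from 4.31 and 4.74 with vector to 5.10 and 5.01 with EN2 (adjusted p = 0.24), and its second probe set gave 0.58. Neither passed, and the A549 change was −0.078 at levels below the spike-in level. The remaining 9 lay between −0.23 and 0.20 in both lines. Pannexins form related channels that do not dock between cells. PANX1 gave 0.40 ± 0.099 for A549 (adjusted p = 0.0708) and 0.19 for PC9 (adjusted p = 0.841), and PANX2 −0.042 and −0.055; PANX2 was 2.56 higher in PC9 than in A549 with vector. PANX3 was below the spike-in level on all arrays.

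Of 30 measured scaffold, adhesion and trafficking partners of connexin 43, CDH1, the E-cadherin gene and also an epithelial marker, fell by 1.11 in A549 (adjusted p = 0.000384). This is 1 of 30, beside 2.72% of all genes, and the other 29 missed the threshold, with a list median of 0.011 beside −0.0015 over all genes. The next smallest p-values in A549 were those of the caveolin gene CAV2 (−0.33), the vinculin gene VCL (0.21) and the ezrin gene EZR (−0.25), none called. In PC9 none of the 30 passed (0.367% of all genes did), with the smallest p-values for CCN3 (−0.36), the ubiquitin ligase gene SMURF2 (0.34), CDH2 (0.32) and CAV1 (−0.099).

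Of 18 measured kinases and phosphatases that act on connexin 43, PRKCE, a protein kinase C gene, rose by 0.83 (adjusted p = 0.0259) and the mitotic kinase gene CDK1 by 0.55 (adjusted p = 0.0111) in A549. SRC, the tyrosine kinase whose phosphorylation of connexin 43 is known to close channels, fell by 0.73 (adjusted p = 0.00173). These 3 of 18 stand beside 2.72% of all genes. The other 15 did not pass, PTK2B (−0.20) being next, and the list median was −0.034. In PC9 none passed (0.367% of all genes did), PRKCD (0.21), PTPRM (0.13), PRKACA (0.084) and MAPK3 (−0.10) having the smallest p-values.

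Of 19 measured transcription factors known at connexin promoters, TFAP2C, an AP-2 factor, rose by 0.81 (adjusted p = 0.0032) and the T-box repressor gene TBX3 by 0.64 (adjusted p = 0.0439) in A549, and 17 did not pass, SNAI2 (0.64, adjusted p = 0.0718) and JUN (0.54, adjusted p = 0.208) among them. These 2 of 19 stand beside 2.72% of all genes, and the list median was 0.075. In PC9 none passed (0.367% of all genes did), with IRX3 (−0.35), KLF4 (−0.37), CEBPA (0.22) and NR3C1 (−0.22) having the smallest p-values, and the list median was −0.057.

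Genes with the most similar pattern were ranked by Pearson's r over the 8 arrays after the mean of each line was subtracted, among 14813 genes above the spike-in level; with so many candidates and 8 arrays, high values are common, and they are given without a test. For GJC1 these were PAPPA, ADGRA3 and TENM3 (each r = 0.982). PAPPA gave 0.29 in A549 and −0.62 in PC9, ADGRA3 0.16 and −0.35, and TENM3 0.28 and −0.88. For GJB2 they were ABCB1, RILPL2 and SHISA2 (0.972 to 0.977), and for GJA1 CLPB, CAD and DDX28 (0.970 to 0.980). Those of GJB1 were RBP2, OR4S1 and SEMA7A (0.966 to 0.968), of GJB5 ATP8A1, CCNI2 and TBX1 (0.959 to 0.988), and of GJB6 C2CD2L, CROCC and HSP90AB6P (0.966 to 0.971).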

How the data were processed

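Total RNA of 8 samples was hybridised as biotin-labelled cDNA to single-colour arrays. The values deposited by the authors are on the log2 scale; RMA is the summary method that the submitters' processing notes name, and its version is not given in the sources used here. Background correction and the summary over probes in RMA compress differences of dim probe sets. Names came from the annotation of the array, with symbols updated by Entrez identifier through RefSeq (GRCh38.p14): 45284 carried 1 symbol, 1333 several and 2878 none, and of the first 45214 matched. The probe set with the highest mean over the arrays stood for each of 18244 genes.

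With limma 3.58.1 in R 4.3.3, 4 group means were estimated from all 8 arrays together (lmFit, then eBayes with an intensity trend, with 4 residual degrees of freedom). All tests were two-sided and adjusted by Benjamini-Hochberg over all genes, or over 45284 probe sets where said, and called below 0.05. Comparisons were EN2 against vector in each line, the difference of these changes, and the vector controls of the lines. With 2 arrays against 2, the smallest p of an exact permutation test is 0.333. Dim probe sets were kept.

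The members and gene lists were chosen with earlier results of these data known. Named were the 6 members, EN2, the other connexins, up to 4 genes with the smallest p of each other list in each line, and the 3 genes most like each member. The cell type markers named were picked with their values in view. Other settings tried were the prior variance, scaling, probe set summary, a filter on dim genes, the replicate number as a block, the 18S rRNA signal, the arrays of a line alone and leaving out arrays. The method was tested on simulated data with known changes in A549. Recovery was required only for the largest of these, which exceeds every EN2 change of a connexin given here. The share recovered at smaller changes is not reported here. The number of arrays limits the precision.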

Additional observations from a re-analysis of the deposited data

Results flagged for a closer look

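GJC1 was singled out because its change with EN2 differed between the lines: the A549 change minus the PC9 change was 0.87 on the log2 scale (limma adjusted p = 0.0381 over 18244 genes), with both EN2 arrays above both vector arrays in A549 and below them in PC9. Both single-line changes missed the threshold, and the call of the difference held in 1 of the 8 fits that left out an array. GJB2 was singled out because its arrays separated in opposite directions in the lines. The difference of 0.34 on the log2 scale did not pass the test of the difference (adjusted p = 0.434). Its A549 change of 0.048 was smaller than the SD pooled over all groups (0.12). That SD was largest in PC9 with vector (0.23) and was 0.0080 with EN2 and 0.013 with vector in A549, from 2 arrays each.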

How the results depend on the processing

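The counts of all genes called depended on the arrays and on the model, and so did some connexin calls and values. For EN2 against vector in A549, 496 genes were called as reported, 1393 with the replicate block, 20 when adjusted for 18S rRNA, 92 on the A549 arrays alone, 25 when the A549 arrays with the outermost 18S rRNA signals were dropped, 917 probe sets when every probe set was tested, and 112 to 623 genes with an array left out. In PC9 67 genes were called as reported, 126 with the replicate block, 126 probe sets with every probe set tested, 23 on the PC9 arrays alone and 19 to 62 with an array left out. The difference between the lines was called for 143 genes, 426 with the replicate block, 10 with the 18S rRNA covariate, 241 probe sets and 40 to 124 genes with an array left out. The vector controls differed in 13823 genes, 164 with the 18S rRNA covariate, 33673 probe sets and 12575 to 13815 genes with an array left out. The replicate numbers share only a number: EN2 and vector deviations of the same number correlated at 0.349 in A549 and 0.0656 in PC9. With the replicate block, GJC1 in PC9 was called (−0.60, adjusted p = 0.0179), as was GJA1 probe set 3 in A549 (−0.49, adjusted p = 0.0438), and no other connexin call with EN2 changed. GJC1 in PC9 was also called with the 18S rRNA covariate (−0.60, adjusted p = 0.0464). Among the 6 connexin genes, no called value changed sign under the alternatives run; the other 10 were not refitted one by one. Over its alternatives the GJC1 difference between the lines ran from 0.66 to 1.02. Fits of the dimmer GJA1 and GJC1 probe sets under these alternatives were added after the data had been seen. With 2 arrays a group, signal near background limits GJB1 and GJB6 in both lines and GJB2 and GJB5 in A549. It also limits GJA1 and the dimmer GJC1 probe sets in PC9.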
